A study of Mus musculus with 54 samples.

Results

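The genes described here encode proteins of the cytosolic ribosome, and they were followed in testis and ovary of mice from a study of a pharmaceutical cocktail in drinking water. A gene was a member if its symbol was Rpl or Rps followed by a number, with or without a final a or x, if it was Rplp0, Rplp1 or Rplp2, or if it was Rpsa. The rule found 76 members among the 26264 genes of each count table. Of these, 43 were numbered proteins of the large subunit, 3 were stalk proteins of the large subunit and 30 were proteins of the small subunit. By RefSeq chromosome, 4 members were X-linked and 72 were autosomal. The rule left out Rps3a1, Fau and Rack1, among others, which also encode ribosomal proteins, and the tissue-specific paralogs.

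RNA of testes (age 35 days) and ovaries (age 30 days) was sequenced in 54 libraries, 3 (A, B and C) for each of 18 groups. In the F1 generation, pregnant mice from 8.5 days post coitum and then their progeny drank control water with 0.001% ethanol, dose 1 or dose 2. Both doses mixed 4 drugs, given here in ng/L: ibuprofen was at 11.3 in dose 1 and 113 in dose 2, its metabolite 2-hydroxyibuprofen at 90 and 225, diclofenac at 22.5 and 112, and 17a ethinyl-estradiol at 2.25 and 45. F2 animals are labelled only by the groups of their parents: the mother (maternal dose 1 and maternal dose 2), the father (paternal dose 1 and paternal dose 2) or both parents (biparental dose 2) came from an exposed group, and in the control cross neither did. The labels do not say whether the libraries of a group came from separate animals or litters, so p-values measure the spread between libraries, which may in part be technical.

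Each ribosome joins a small subunit, which reads the messenger RNA, to a large subunit, which forms the peptide bond. Cells make the proteins of both subunits in matched amounts, partly through a pyrimidine-rich start shared by their transcripts, which lets growth signals through mTOR control their translation together. In the male germ line the X chromosome is silenced during meiosis, and autosomal copies of some X-linked ribosomal protein genes, such as Rpl10l and Rpl39l, are active in germ cells of the mouse testis.

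Promoter sequence was found in RefSeq (build GRCm38.p6, 250 bases before to 50 after each annotated start) for 56 of the 76 members. The motifs searched were CTCTTTC, a pyrimidine run of the kind found at these starts, and CGGAAGT with its reverse complement ACTTCCG, the core bound by ETS factors. Both were chosen after member sequences had been seen. CTCTTTC on the gene's strand was present in 13 of 56 members (23.2%), against 1244 of all 27025 genes in the table (4.6%), and on either strand in 17 members (30.4%), against 9.28% of all genes. The ETS letters on either strand were present in 20 members (35.7%), against 7.2% of all genes. The windows printed here hold the 90 bases before the annotated start and the first 30 bases of the transcript, so the start is base 91, and capitals mark these motifs. They show the member with the smallest spread in F1 testis (Rps6, chosen after its values were seen), a member with the pyrimidine run at its very start (Rpl28), the member whose level stood apart in single libraries (Rpl26) and an X-linked member (Rpl10). The capitalised matches do not overlap each other.
Rps6 (chr4:86857338-86857457, minus strand): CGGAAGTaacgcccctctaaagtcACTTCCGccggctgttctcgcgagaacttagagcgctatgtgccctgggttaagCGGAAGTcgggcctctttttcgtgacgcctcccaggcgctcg
Rpl28 (chr7:4792875-4792994, plus strand): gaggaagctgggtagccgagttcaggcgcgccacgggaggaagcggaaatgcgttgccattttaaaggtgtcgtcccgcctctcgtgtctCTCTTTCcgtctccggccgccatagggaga
Rpl26 (chr11:68901476-68901595, plus strand): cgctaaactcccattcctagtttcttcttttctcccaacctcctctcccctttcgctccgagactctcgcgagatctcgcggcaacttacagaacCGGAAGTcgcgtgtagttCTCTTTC
Rpl10 (chrX:74270726-74270845, plus strand): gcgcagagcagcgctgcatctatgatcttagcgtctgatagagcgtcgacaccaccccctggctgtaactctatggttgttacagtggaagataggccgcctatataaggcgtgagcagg
Rps6 carries 3 ETS matches and Rpl26 carries 1 match of each motif, while neither set of letters is in the Rpl10 window. Absence of these letters says nothing about the factors.

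Total counts per library were 31.8 to 122 M reads (M, mega) in F1 testis, 31.6 to 48.2 M in F2 testis, 36.6 to 57.4 M in F1 ovary and 37.9 to 84.7 M in F2 ovary. All 76 members passed the filter on low counts in every fit. The ovary markers Gdf9 and Foxl2 were each below 1 CPM (counts scaled to library size, per M counts) in every testis library, and their lowest and highest values over the ovary libraries were 99.4 and 502 CPM. The sperm protamine Prm1 was at 1200 to 6250 CPM in testis and at 0 to 0.204 CPM in F2 ovary. In F1 ovary it was at 2.4 to 15.9 CPM in 8 libraries and at 234 CPM in control library A, where the summed level of 12 elongating spermatid markers was 1956 CPM, against 111.7 to 235 CPM in the others. Rps27 was the lowest member per length in both tissues (2.09 CPM per kb in testis and 5.16 CPM per kb in ovary). Many members have near-identical processed pseudogenes, and how the counting treated shared reads and strand is not given, so levels of single members are uncertain to that extent.

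The 76 genes stood lower in testis than in ovary. Their mean log2 CPM per library was 6.441 to 6.647 in F2 testis and 6.594 to 8.111 in F1 testis, against 8.774 to 9.547 in F2 ovary and 8.593 to 9.01 in F1 ovary, so that no testis library reached any ovary library. They took 0.866% to 2.61% of all counts in testis, against 3.82% to 6.77% in ovary. Per length, the median member was at 167.5 CPM per kb in testis and 788.5 CPM per kb in ovary. Rpl41, which encodes the smallest ribosomal protein, was the highest member per length in testis (844 CPM per kb), and Rpl23a, at the exit of the peptide tunnel, was the highest in ovary (1920 CPM per kb).

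**Figure D1:**
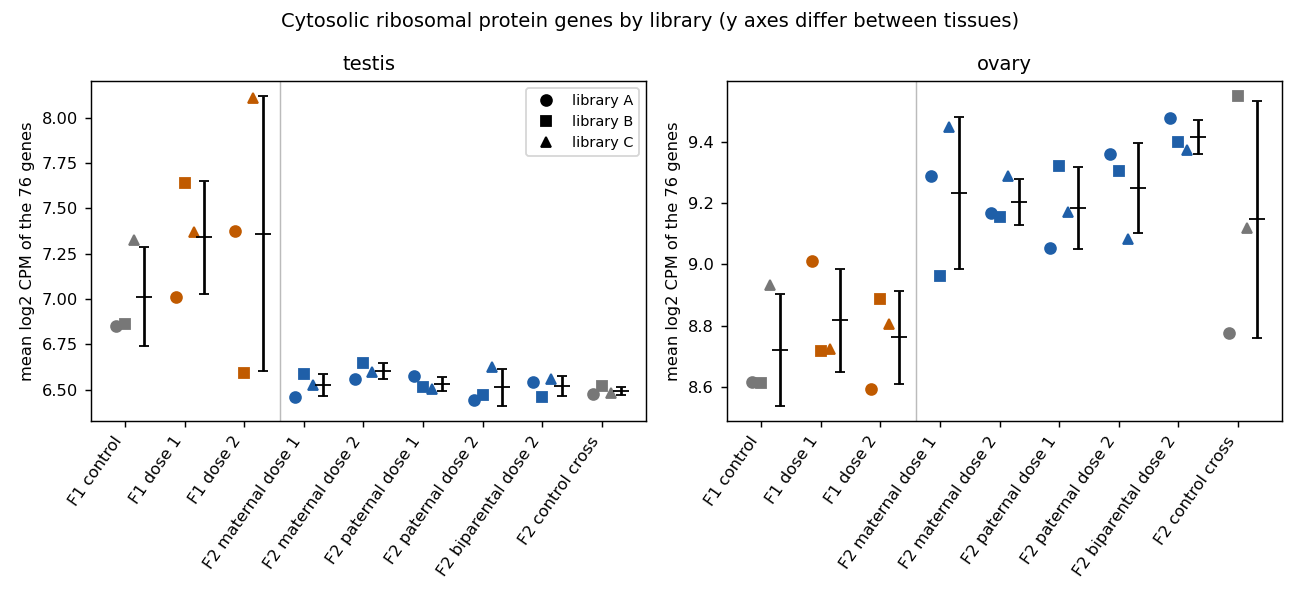
Mean log2 CPM of the 76 cytosolic ribosomal protein genes in each library (points, shaped by library letter) of testis and ovary, with the group mean and SD beside them (n = 3 per group). In testis the F1 libraries spread from 6.594 to 8.111 while the F2 libraries lie between 6.441 and 6.647.

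The tissues were compared in the 6 unexposed libraries of each (3 F1 control and 3 F2 control cross), with generation as a term, by edgeR's quasi-likelihood test with Benjamini-Hochberg adjustment over 19320 genes. Of the 76 members, 73 were called lower in testis, beside 44.9% of all genes tested, and 62 were lower by at least 1 on the log2 scale, beside 34.3% of all genes. No member was called higher. The median log2 fold change of the members was -1.75 (range -4.98 to -0.57), and that of all genes was -0.02. The median was -1.79 for the small subunit and -1.72 for the large subunit with its stalk. With RLE scaling factors the median of all genes shifted up by 0.277 against TMM, 67 members were called lower and their median was -1.48. Within a generation the members' median was -1.32 in F1 control libraries alone and -2.14 in F2 control cross libraries alone, and the difference between generations was not tested. Tissue cannot be told apart from sex and age here, and in bulk tissue a smaller share of cells with many ribosomes cannot be told apart from less RNA per cell.

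The X-linked members had the lowest fold changes of testis over ovary. Rps4x, a small-subunit protein, had 33.1, 26.7 and 32.7 CPM in F1 testis and 27.2, 24.4 and 27 CPM in F2 testis, against 837, 789 and 911 CPM in F1 ovary and 736, 1270 and 970 CPM in F2 ovary. Its log2 fold change was -4.98 ± 0.17 (SE, n = 6 each, edgeR adjusted p = 5.7e-10), or 31.6-fold lower in testis. Rpl10, which joins the large subunit late and is needed for it to become active, averaged 42.4 ± 4.58 CPM in testis and 968 ± 139 CPM in ovary (SD, n = 6 each), a log2 fold change of -4.48 ± 0.13 (SE). Rpl36a averaged 13.4 ± 4.27 CPM in testis and 202 ± 54.9 CPM in ovary, and Rpl39, which lines the peptide exit tunnel, averaged 12.4 ± 5.92 CPM in testis and 139 ± 37.3 CPM in ovary (SD, n = 6 each). No testis library overlapped an ovary library for any of the 4. This was not particular to them, as autosomal members such as Rpl10a and Rpsa did not overlap either. The share of all genes without overlap is not given here, and 44.9% of all genes tested were called lower in testis. Their median log2 fold change was -4.2, against -1.72 for the 72 autosomal members and -0.79 for all 795 X-linked genes tested, of which 432 were called lower.

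Of the autosomal paralogs of these 4 genes, 3 were higher in testis. Rpl10l, the germ-cell copy of Rpl10, had 162, 169 and 194 CPM in F1 testis and 131, 166 and 155 CPM in F2 testis, against 15.8, 1.38 and 0.99 CPM in F1 ovary and 0.505, 1.34 and 0.916 CPM in F2 ovary. Rpl39l, the germ-cell copy of Rpl39, averaged 181 ± 54.1 CPM in testis and 4.48 ± 7.96 CPM in ovary (SD, n = 6 each), and F1 ovary control library A alone had 20.7 CPM. In these 12 libraries Rpl10l had a log2 fold change of 6.11 ± 0.88 and Rpl39l of 5.9 ± 0.88 (SE). Without that ovary library they had 7.31 ± 0.24 and 7.16 ± 0.29 (SE, edgeR adjusted p = 2.53e-11 for Rpl10l and 1.38e-10 for Rpl39l). Rps4l, named after its values were seen, rose by 2.44 ± 0.15 (log2, SE) and averaged 101 ± 23.6 CPM in testis and 18.8 ± 5.08 CPM in ovary (SD, n = 6 each). Rpl36al averaged 72.6 ± 13.3 CPM in testis and 95.2 ± 26.7 CPM in ovary (SD, n = 6 each) and was not called (edgeR adjusted p = 0.0942).

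**Figure D2:**
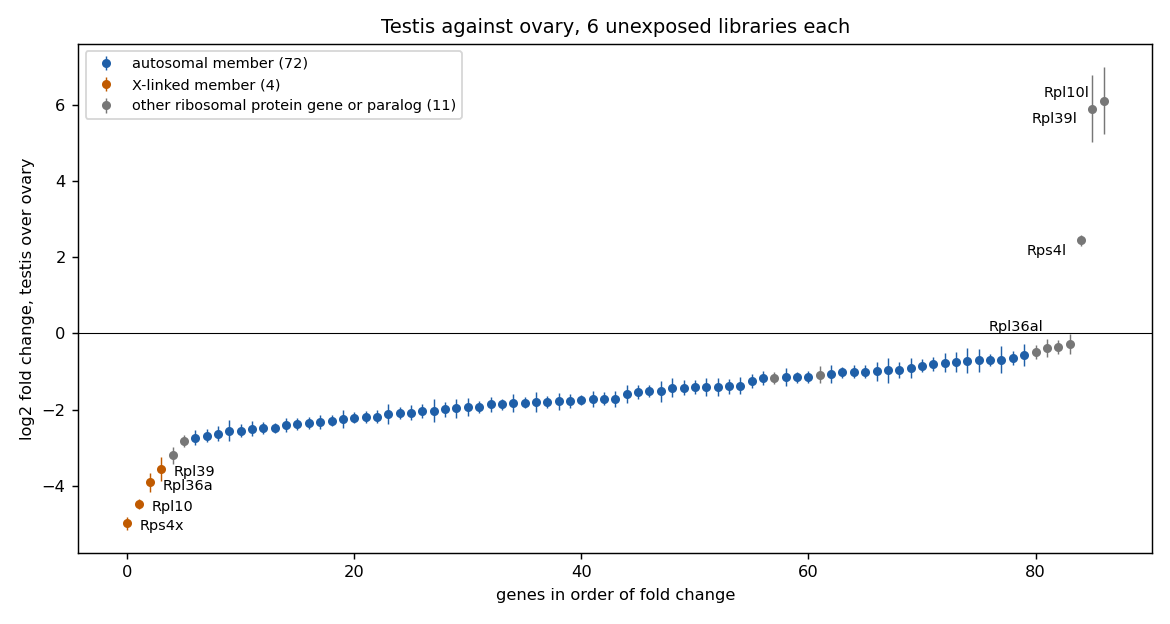
Log2 fold change of testis over ovary (y axis, error bars SE, 6 unexposed libraries each) for the 76 members and 11 other ribosomal protein genes or paralogs, in order of fold change. The 4 X-linked members lie lowest, from -4.98 to -3.56, while Rpl10l, Rpl39l and Rps4l lie above 0.

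Among autosomal members the lowest fold change was that of Rpl10a, with 98.6 ± 21.7 CPM in testis and 665 ± 171 CPM in ovary (SD, n = 6 each; log2 fold change -2.74 ± 0.2, SE). Rpsa, the small-subunit protein also known as the laminin receptor, had 266, 256, 341, 208, 182 and 192 CPM in testis, against 1150, 1230, 1300, 1120, 1910 and 1550 CPM in ovary, and fell by 2.5 on the log2 scale. The stalk, where Rplp0 carries Rplp1 and Rplp2 and recruits elongation factors, was also lower. Rplp2 fell by 2.03 and Rplp1 by 1.93, while Rplp0 fell by 0.8 on the log2 scale, with 829 ± 207 CPM in testis and 1450 ± 252 CPM in ovary (SD, n = 6 each). The members nearest to level were Rpl41 (-0.57 ± 0.28), Rps20 (-0.65 ± 0.19), Rpl26 (-0.69 ± 0.36), Rps7 (-0.7 ± 0.15) and Rpl38 (-0.71 ± 0.3), given as log2 fold change and SE. Rpl38, which in mouse embryos affects translation of Hox messages, was called at an edgeR adjusted p of 0.0413, while Rpl41 (0.078), Rpl26 (0.0857) and Rps27 (0.06) were not called. Genes often used as references for qPCR differed between the tissues as well. Rpl13a fell by 1.96, Rps18 by 1.78, Rpl19 by 1.72 and Rps29 by 0.75 on the log2 scale.

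Other lists of the translation machinery were described in the same fit. The 77 mitochondrial ribosomal protein genes had a median log2 fold change of -0.33, with 38 called lower in testis and 20 higher, beside 44.9% of all genes called lower and 44.2% called higher. The 32 translation factors had a median of -0.02 (14 lower, 12 higher), the 34 ribosome biogenesis genes -0.61 (19 lower, 9 higher) and the 13 genes of growth control through mTOR and MYC -0.98 (10 lower, 2 higher).

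Within a tissue the members varied from library to library, with the largest spread in F1 testis. The SD of log2 CPM over the 9 F1 testis libraries had a median of 0.461 over members, against 0.224 over all 10968 genes at a mean log2 CPM of at least 3 and 0.376 over the 77 mitochondrial ribosomal protein genes. Over the 18 F2 testis libraries the median SD was 0.095 over members, 0.111 over all such genes and 0.116 over the mitochondrial list. In 75 of 76 members the SD was larger in F1 than in F2 testis, while in ovary that was so in 3 of 76. The ovary direction was not particular to the members. From F1 to F2 ovary the median SD went from 0.16 to 0.215 over members and from 0.134 to 0.189 over all such genes. Over the mitochondrial list it went from 0.127 to 0.169. In F1 testis, dose 2 library C was the highest of the 9 for 57 members, and dose 2 library B was the lowest for 58. In F1 ovary, dose 1 library A was the highest for 60 members. In F2 ovary, control cross library A was the lowest of 18 for 71 members, and control cross library B was the highest for 33.

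These library levels went with the level of short transcripts in general. For each library, a short-transcript deviation was taken as the median log2 deviation from the mean of all 27 libraries of its tissue, over non-member genes in the shortest 20% by annotated transcript length with a mean log2 CPM over 3. In F1 testis it was 0.77 in dose 2 C, where the members averaged 8.111 log2 CPM, and -0.125 in dose 2 B, where they averaged 6.594. In F2 ovary it was 0.321 in control cross B (members 9.547 log2 CPM) and -0.1 in control cross A (members 8.774 log2 CPM). Sums of cell type markers in these F1 testis libraries differed in both directions. The summed level of the 12 elongating spermatid markers was 38600 CPM in F1 testis dose 2 C and 13870 CPM in dose 2 B, and 15250 to 32250 CPM in the other 7 libraries. For 13 spermatogonial markers it was 1851 CPM in dose 2 C and 648.1 CPM in dose 2 B, and for 11 macrophage markers 366.7 CPM in dose 2 C and 153.7 CPM in dose 2 B. Spermatocyte markers were lower in dose 2 C (1800 CPM) than in dose 2 B (2377 CPM), and Sertoli markers were at 1362 CPM in dose 2 C and 1352 CPM in dose 2 B. In F2 ovary, oocyte markers summed to 1374 CPM in control cross B and 774.1 CPM in control cross A, granulosa markers to 11120 and 9220 CPM, and macrophage markers to 456.2 and 610.6 CPM, in the same order. What part these library differences have in the member levels was not tested.

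**Figure D3:**
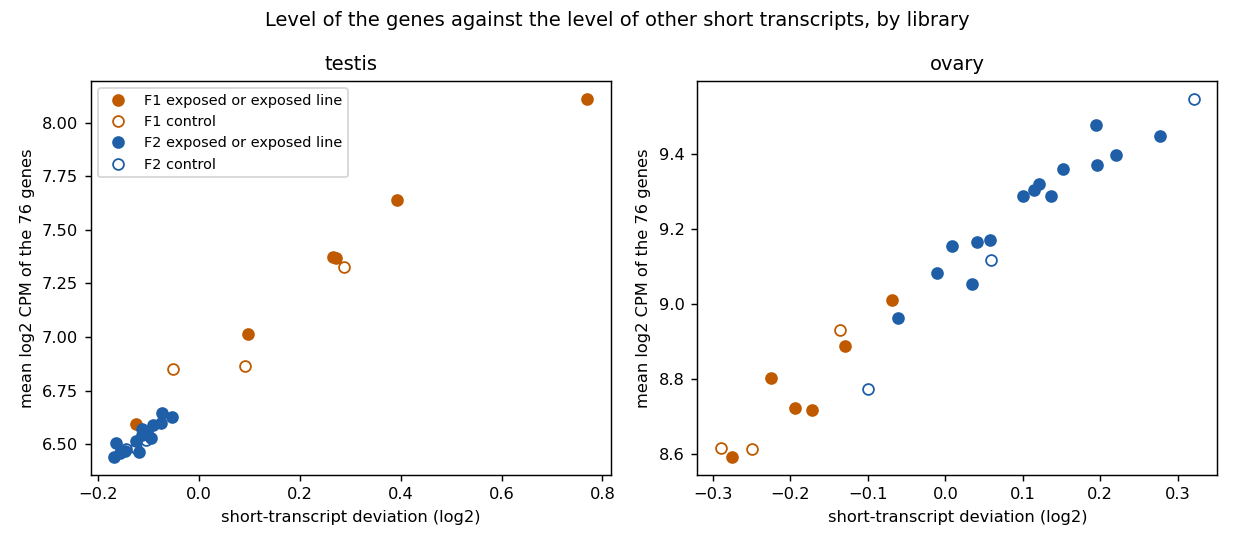
Mean log2 CPM of the 76 members (y axis) against the short-transcript deviation (x axis, log2) of each of the 27 libraries of testis and of ovary. Filled points are exposed animals or animals of exposed lines, and open points are controls. Libraries with a higher deviation have higher member levels in both tissues, up to 0.77 and 8.111 log2 CPM in F1 testis dose 2 C.

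The members differed in how far they followed. Over the 27 testis libraries the largest SDs of log2 CPM were those of Rps14 (0.985), Rpl39 (0.953) and Rps3 (0.908), and among the smallest were those of Rpl29 (0.134) and Rpl7a (0.138). Rps14, a protein of the platform of the small subunit, had 231, 507 and 442 CPM in F1 testis controls, 298, 604 and 434 CPM at dose 1, and 422, 164 and 3050 CPM at dose 2. Rps3, at the entry of the messenger RNA channel, had 121, 165 and 187 CPM in controls, 136, 266 and 184 CPM at dose 1, and 177, 82.6 and 1110 CPM at dose 2. Dose 2 C alone was far above the others for both. Rps6, the target of S6 kinase, whose promoter is printed above, had 132, 123 and 142 CPM in controls, 130, 129 and 145 CPM at dose 1, and 146, 123 and 132 CPM at dose 2, without any library apart. Relative to the median of the other 8 F1 testis libraries, dose 2 C was higher by a median of 0.84 on the log2 scale over the 76 members, from -0.18 (Rpl32) to 2.83 (Rps14), and by more than 2 for 8 of them. In ovary the largest SDs were those of Rpl26 (0.786), Rpl30 (0.464) and Rps27 (0.385), and the smallest those of Rpl4 (0.211), Rpl10 (0.22) and Rpl9 (0.221).

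**Figure D4:**
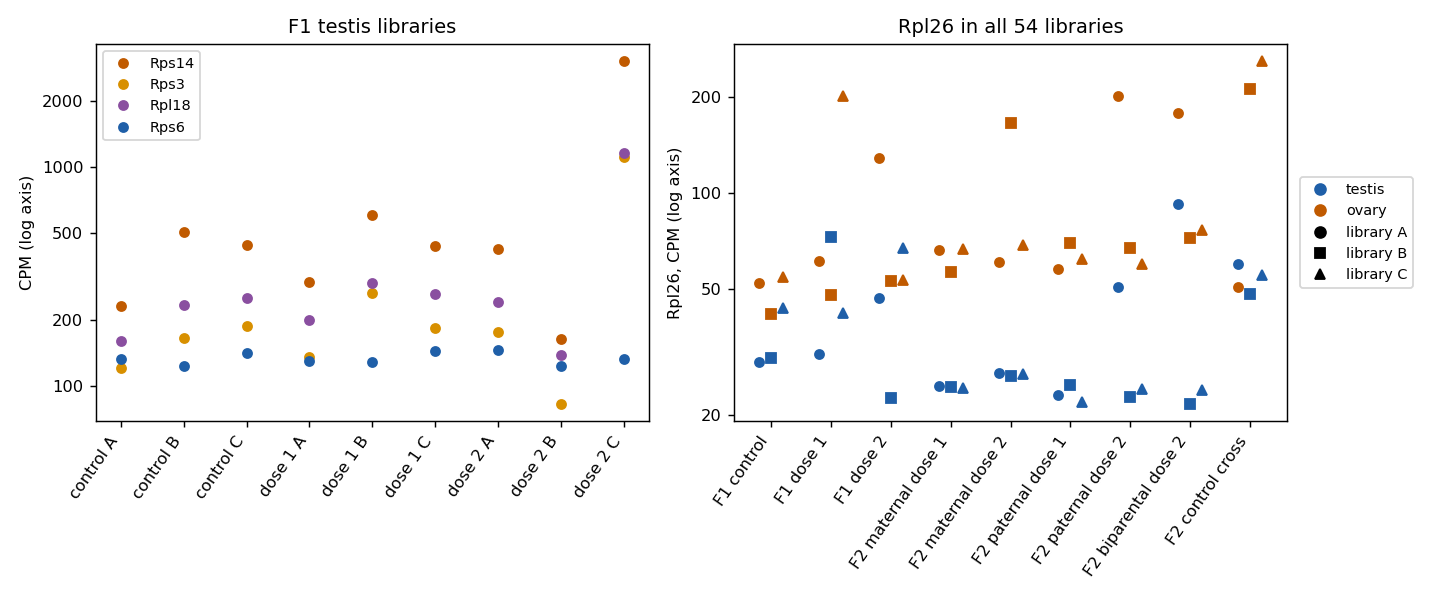
Left, CPM (log axis) of Rps14, Rps3, Rpl18 and Rps6 in the 9 F1 testis libraries, where Rps14 reaches 3050 CPM in dose 2 C and Rps6 lies between 123 and 146 CPM. Right, CPM (log axis) of Rpl26 in all 54 libraries by group, where single libraries lie far from the others of their group.

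In F1 testis no member passed the adjusted threshold at either dose. At dose 1, 71 of 76 members had a higher mean than in controls, with a median log2 fold change of 0.25 (all genes -0.01). The mean log2 CPM per library was 7.014, 7.638 and 7.37 at dose 1, against 6.85, 6.865 and 7.327 in controls, so the groups overlapped. edgeR called 0 members, beside 0.021% of all genes, with a lowest adjusted p of 0.998. DESeq2 called 0, beside 0.112% of all genes, and 1 member (Rps21) had an unadjusted edgeR p under 0.05, beside 3.18% of all genes. Rps21, a small-subunit protein, had 84.4, 195 and 105 CPM at dose 1, against 49.8, 40 and 81.5 CPM in controls (log2 fold change 1.15 ± 0.48, SE, edgeR adjusted p = 0.998). It was the 1 member of 76 whose dose 1 libraries all lay above the controls, beside 6.14% of all genes. Rpl37 had 135, 261 and 186 CPM at dose 1, against 90.9, 76.2 and 150 CPM in controls, and Rps15a had 177, 379 and 232 CPM at dose 1, against 121, 84.2 and 187 CPM in controls, with overlap in both. Without dose 1 B the median was 0.099, without dose 1 A it was 0.386 and without control C it was 0.402, and with a term for short transcripts it was 0.048.

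At dose 2 in F1 testis, 74 of 76 members had a higher mean, with a median log2 fold change of 0.4 (all genes 0.01), and the median rested on 1 library. The mean log2 CPM per library was 7.374, 6.594 and 8.111 at dose 2, against 6.85, 6.865 and 7.327 in controls. edgeR called 0 members, beside 0.00526% of all genes, with a lowest adjusted p of 0.982. DESeq2 called 0, beside 0.0212% of all genes, and no member had an unadjusted edgeR p under 0.05, beside 1.93% of all genes. Without dose 2 B that count was 48 (17.2% of all genes), with a lowest adjusted p of 0.262, and without dose 2 C it was 0. The median was 0.016 without dose 2 C and 0.679 without dose 2 B, and it was 0.002 with the short-transcript term. The lowest p was that of Rpl10, with 46.5, 43.4 and 64.6 CPM at dose 2, against 42.1, 35.5 and 41.5 CPM in controls (log2 fold change 0.35 ± 0.17, SE, edgeR adjusted p = 0.982). Rpl10 was the 1 member of 76 whose dose 2 libraries all lay above the controls, beside 2.09% of all genes. Next were Rps3, given above, and Rpl18, with 242, 139 and 1160 CPM at dose 2, against 161, 235 and 251 CPM in controls, where dose 2 B was the lowest library and dose 2 C the highest. With dose 2 B and C left out of the fit, the dose 1 median was 0.26, and 13 members (7.33% of all genes) had an unadjusted edgeR p under 0.05, with a lowest adjusted p of 0.586. Mitochondrial ribosomal protein genes had medians of 0.14 at dose 1 and 0.34 at dose 2, and translation factors -0.01 and 0.

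In F1 ovary the members differed little between groups. The mean log2 CPM per library was 9.01, 8.718 and 8.723 at dose 1, against 8.617, 8.614 and 8.931 in controls, with a median log2 fold change of 0.07 (72 of 76 higher). At dose 2 the libraries had 8.593, 8.888 and 8.804, and the median was 0.03 (66 of 76 higher). edgeR called 0 members at either dose, beside 0% of all genes, DESeq2 called 0, beside 0.0899% of all genes at dose 1 and 0.0571% at dose 2, and no member had an unadjusted edgeR p under 0.05, beside 8.33% of all genes at dose 1 and 3.75% at dose 2. Without control A, the library with Prm1 at 234 CPM, the medians were 0.032 at dose 1 and -0.001 at dose 2. The dose 1 median was also -0.033 without dose 1 A, and -0.093 with the short-transcript term, where 2 of 76 members were higher. Its sign thus depended on single libraries and on that term. At dose 2 the sign turned with that term as well. At both doses all members overlapped with the controls, while 10.5% of all genes at dose 1 and 7.19% at dose 2 did not.

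In F2 testis the largest shift of the members was in the maternal dose 2 cross. The mean log2 CPM per library was 6.561, 6.647 and 6.598 in the maternal dose 2 cross, against 6.477, 6.518 and 6.481 in the control cross, and the groups did not overlap. The median log2 fold change was 0.12 (all genes 0), with 70 of 76 members higher. By edgeR 0 members were called, beside 0.372% of all genes, while 26 members were higher and 1 lower at an unadjusted p under 0.05, beside 15.7% of all genes in either direction. All 3 maternal dose 2 libraries lay above all 3 control cross libraries for 29 members, beside 10.4% of all genes, and below them for 1, beside 11% of all genes. Without control cross A the 26 higher members at an unadjusted p under 0.05 fell to 16, beside 8.65% of all genes. Without maternal dose 2 B they also fell to 16, beside 16% of all genes. DESeq2 called 4 of 76 members, beside 2.48% of all genes, all higher: Rpl34, Rps2, Rps15 and Rps19, which were named after their values were seen.

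Rpl34, a large-subunit protein, had 24.6, 28.2 and 31.9 CPM in the maternal dose 2 cross, against 20.9, 22.2 and 20.3 CPM in the control cross (log2 fold change 0.42 ± 0.09, SE, edgeR adjusted p = 0.0517). Rps2, a neighbour of Rps3 at the messenger RNA entry, had 197, 217 and 217 CPM, against 162, 175 and 166 CPM in the control cross (edgeR adjusted p = 0.108). Rps15 had 110, 114 and 124 CPM in the maternal dose 2 cross, against 83, 98.5 and 100 CPM in the control cross. Rps19, which is mutated in human Diamond-Blackfan anaemia, had 52.8, 58.7 and 61.2 CPM in the maternal dose 2 cross, against 43.1, 49.8 and 47.1 CPM in the control cross. The groups did not overlap for any of the 4, but these were picked by their DESeq2 call in the same libraries, so this is no separate evidence. The short-transcript deviation was -0.112, -0.074 and -0.075 in the maternal dose 2 cross, against -0.144, -0.106 and -0.126 in the control cross. With a term for it, the median was 0.046. At an unadjusted edgeR p under 0.05, 12 members were then higher and 0 lower, beside 11.8% of all genes. Of the 13 spermatogonial markers, 12 were higher in the maternal dose 2 cross (median 0.11, summed level 681 to 791 CPM, against 651 to 710 CPM in the control cross), and of the 12 elongating spermatid markers 2 were (median -0.12, summed level 17100 to 19000 CPM, against 18700 to 20000 CPM in the control cross). Of all genes, 51.1% were higher. Spermatocyte markers summed to 2127, 2078 and 2045 CPM in the maternal dose 2 cross, against 2064, 2162 and 2027 CPM in the control cross. Round spermatid markers summed to 2007, 2069 and 2042 CPM, against 2112, 2065 and 2101 CPM in the control cross. Both overlapped. The ribosomal RNA precursor Rn45s, which is no member and was named after its values were seen, was at 136, 162 and 160 CPM in the maternal dose 2 cross, against 260, 234 and 241 CPM in the control cross, without overlap. The part of these markers and of Rn45s in the result was not tested.

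The paternal dose 1 cross came next in F2 testis. Its members had a median log2 fold change of 0.05 (54 of 76 higher). Its libraries averaged 6.573, 6.514 and 6.504 log2 CPM, against 6.477, 6.518 and 6.481 in the control cross, with overlap. By edgeR 0 members were called, beside 0.201% of all genes, and 9 were higher and 1 lower at an unadjusted p under 0.05, beside 12.5% of all genes. DESeq2 called 2, Rpl14 and Rps2, beside 1.12% of all genes, and both were named after their values were seen. Rpl14 had 64.7, 62 and 64.7 CPM in the paternal dose 1 cross, against 46.6, 53.5 and 49.2 CPM in the control cross (log2 fold change 0.35 ± 0.08, SE, edgeR adjusted p = 0.0896), and Rps2 had 217, 214 and 213 CPM, against 162, 175 and 166 CPM in the control cross. The median was 0.011 without paternal dose 1 A. Rn45s was at 146, 106 and 116 CPM in the paternal dose 1 cross, also below the control cross. It was below the control cross as well with paternal dose 2 (159, 165 and 199 CPM) and biparental dose 2 (126, 143 and 133 CPM). The members' median was only 0.02 in each of those crosses. With maternal dose 1 Rn45s was at 256, 232 and 242 CPM. Its part in the member levels was not tested.

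The other F2 testis crosses were closer to the control cross. The median was 0.04 for maternal dose 1 and 0.02 for both paternal dose 2 and biparental dose 2. edgeR and DESeq2 called 0 members in each. In the same order, the calls over all genes were 0.0103%, 0.00516% and 0.0155% by edgeR and 0.0668%, 0.0315% and 0.163% by DESeq2. At an unadjusted p under 0.05, the maternal dose 1 cross had 4 members past the threshold (6.54% of all genes), the paternal dose 2 cross 5 (5.02%) and the biparental dose 2 cross 3 (7.02%). Rps15 led the maternal dose 1 cross, with 105, 123 and 118 CPM, against 83, 98.5 and 100 CPM in the control cross (edgeR adjusted p = 0.702). The 5 F2 comparisons share the 3 control cross libraries of a tissue.

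Rpl26, which sits at the exit of the peptide tunnel, stood apart from the other members in F2 testis. It had 24.7, 24.5 and 24.4 CPM with maternal dose 1, 27.2, 26.6 and 27 CPM with maternal dose 2, and 23.1, 24.9 and 22 CPM with paternal dose 1. It had 50.6, 22.8 and 24.2 CPM with paternal dose 2 and 92.1, 21.7 and 24.1 CPM with biparental dose 2, against 59.7, 48 and 55.1 CPM in the control cross. The control cross and 1 library of each of the last 2 crosses were thus high, and the other 13 libraries lay between 21.7 and 27.2 CPM. The log2 fold changes were -1.15 ± 0.39, -1.01 ± 0.39 and -1.22 ± 0.39 (SE) in the first 3 crosses, with edgeR adjusted p of 0.73, 0.227 and 0.2. In a fit of the 6 libraries of a comparison alone, Rpl26 was called lower with maternal dose 1 (edgeR adjusted p = 0.00515), maternal dose 2 (0.00174) and paternal dose 1 (0.00315). At an unadjusted edgeR p under 0.05, a looser threshold, 5.89%, 16.8% and 11.6% of all genes passed in these fits, in the same order. The share of all genes called at the adjusted threshold is not given here, so how unusual the Rpl26 calls are cannot be read from these values. The fits share the 3 control cross libraries. They leave out the high paternal dose 2 and biparental dose 2 libraries, so they do not see the spread of Rpl26 within those crosses.

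In F2 ovary single libraries of Rpl26 were again far above the rest. It had 50.6, 212 and 260 CPM in the control cross, and 178, 166 and 202 CPM in 1 biparental dose 2, 1 maternal dose 2 and 1 paternal dose 2 library. The remaining 12 libraries of the exposed crosses lay between 56.3 and 76.3 CPM. In F1 ovary it had 61.2, 47.8 and 202 CPM at dose 1 and 129, 52.8 and 53.3 CPM at dose 2, against 52.1, 41.7 and 54.3 CPM in controls. High libraries occurred in control and exposed groups, and the groups overlapped. Rpl30, the other member with a wide spread in ovary, ranged from 132 to 428 CPM over the 27 ovary libraries and from 60.2 to 216 CPM over the 27 testis libraries. In F2 ovary its highest library was biparental dose 2 A, at 428 CPM, next to 212 CPM in both other libraries of that group.

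**Figure D5:**
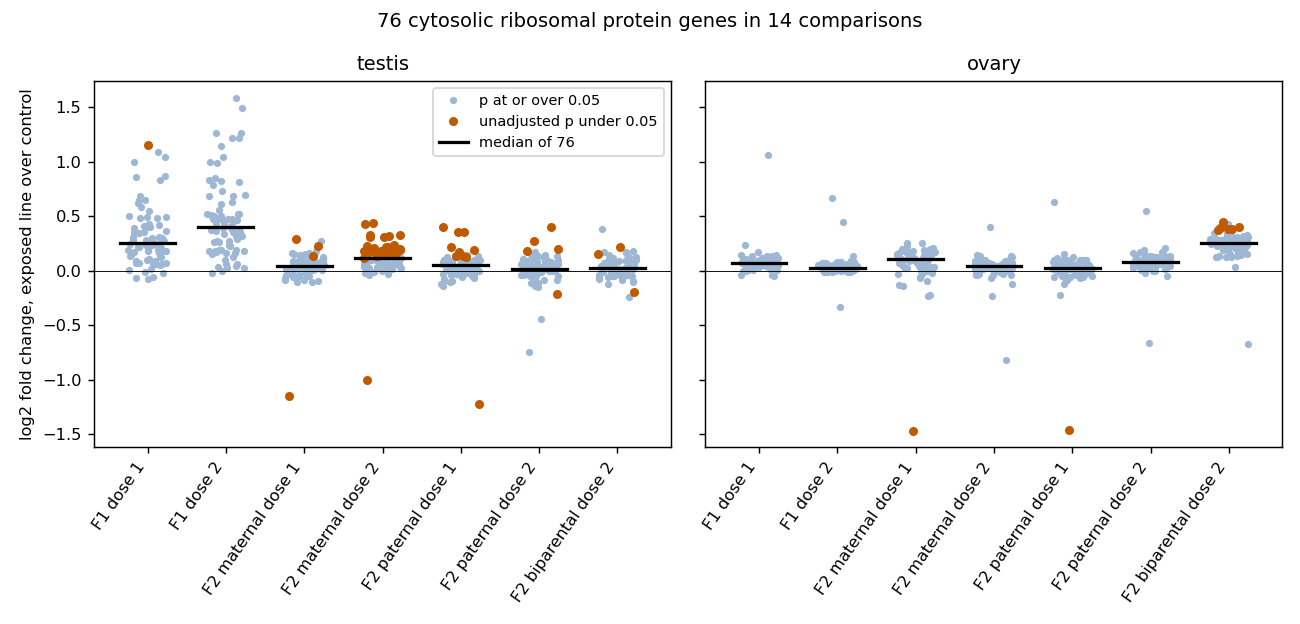
Log2 fold change (y axis) of each of the 76 members in the 14 comparisons of an exposed group or exposed line with its control, with the median as a bar. Orange points have an unadjusted p under 0.05. The medians are 0.25 and 0.4 in F1 testis, 0.12 for maternal dose 2 in F2 testis and 0.25 in the biparental dose 2 cross of F2 ovary, and Rpl26 is the low point at -1.01 to -1.47 in several F2 crosses.

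In F2 ovary the biparental dose 2 cross had the largest median. Its libraries averaged 9.477, 9.398 and 9.372 log2 CPM, against 8.774, 9.547 and 9.119 in the control cross, with a median log2 fold change of 0.25 (all genes 0.03) and 75 of 76 members higher. The 3 biparental libraries lay close together, within the wide range of the control cross. edgeR called 0 members, beside 0% of all genes, DESeq2 called 0, beside 0.139% of all genes, and 6 were higher at an unadjusted edgeR p under 0.05, beside 9% of all genes. Without control cross B that count was 69 (17.6% of all genes), with a lowest adjusted p of 0.209, and without control cross A it was 0 higher and 1 lower. Rpl17, a large-subunit protein, had 901, 845 and 852 CPM in the biparental dose 2 cross, against 529, 821 and 631 CPM in the control cross (log2 fold change 0.4 ± 0.15, SE, edgeR adjusted p = 0.515), and it was the 1 member of 76 without overlap, beside 7.52% of all genes above all controls. Rpl21 had 1020, 975 and 884 CPM, against 542, 947 and 722 CPM in the control cross, and Rps25 had 558, 513 and 516 CPM, against 318, 523 and 386 CPM in the control cross. The median was 0.084 without control cross A and 0.486 without control cross B, and 0.097 with the short-transcript term.

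The other F2 ovary crosses had medians of 0.11 (maternal dose 1), 0.04 (maternal dose 2), 0.03 (paternal dose 1) and 0.08 (paternal dose 2). Without control cross A the medians were -0.054, -0.118, -0.144 and -0.081, and without control cross B 0.325, 0.271, 0.254 and 0.313, in the same order. The sign also turned without maternal dose 1 C, maternal dose 2 C or paternal dose 1 B in their own comparisons, so in these 4 crosses it rested on single libraries. edgeR called 0 members in each, beside 0%, 0%, 0.00575% and 0% of all genes, and DESeq2 called 0, beside 0.14%, 0.113%, 0.101% and 0.0387%. At an unadjusted edgeR p under 0.05 Rpl26 was the 1 member past the threshold for maternal dose 1 (beside 13.1% of all genes) and for paternal dose 1 (4.97%), and there were 0 for maternal dose 2 (6%) and for paternal dose 2 (3.82%). Without control cross B, 38 members were higher at this threshold for maternal dose 1, 8 for maternal dose 2, 8 for paternal dose 1 and 29 for paternal dose 2, beside 11.5%, 6.62%, 5.41% and 5.15% of all genes. With the short-transcript term the counts were 15, 41, 13 and 28, beside 18.3%, 9.09%, 6.92% and 6.44%, and the lowest adjusted p over both settings was 0.228. Apart from Rpl26, the lowest p in the maternal dose 1 cross was that of Rplp0, with 2020, 1760 and 2790 CPM, against 1500, 2300 and 1790 CPM in the control cross (edgeR adjusted p = 0.477). Rps3 followed, with 1020, 862 and 1480 CPM, against 740, 1190 and 881 CPM in the control cross.

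The stalk and reference genes were not called in any of the 14 comparisons with a control. Over these, the log2 fold change ranged from -0.02 to 0.34 for Rplp0, from -0.14 to 0.68 for Rplp1, from -0.08 to 0.23 for Rplp2 and from 0.01 to 0.49 for Rpsa. Of the genes used as qPCR references, Rps18 ranged from -0.15 to 0.23, Rpl19 from 0.03 to 0.5, Rps29 from -0.09 to 0.83 and Rpl13a from -0.05 to 0.99. The highest values of Rps29 were at dose 1 and of Rpl13a at dose 2 of F1 testis, where the libraries spread most. The X-linked members ranged from -0.08 to 0.25 for Rps4x, from -0.02 to 0.35 for Rpl10, from -0.03 to 0.69 for Rpl36a and from -0.05 to 1.27 for Rpl39, with no call. Of the mitochondrial ribosomal protein genes (77), translation factors (32), ribosome biogenesis genes (34) and growth control genes (13), edgeR also called 0 in each of these comparisons. At an unadjusted edgeR p under 0.05 the counts ran from 0 up to 18 mitochondrial ribosomal protein genes, 11 ribosome biogenesis genes and 3 growth control genes. These highest counts were all in the maternal dose 2 cross of testis, beside 15.7% of all genes. Translation factors ran from 0 up to 5, in the maternal dose 1 cross of ovary, beside 13.1% of all genes. DESeq2 called 2 of 34 ribosome biogenesis genes for maternal dose 2 (2.48% of all genes) and 2 for paternal dose 1 (1.12%) in F2 testis, 1 for dose 1 in F1 ovary (0.0899%), and 1 mitochondrial ribosomal protein gene for maternal dose 2 in F2 testis. It called 0 translation factors and 0 growth control genes.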

How the data were processed

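The authors deposited raw read counts per gene, 1 table for each tissue, with no normalization. The submitters' processing notes list build mm39, featureCounts 2.0.3, TopHat2 2.1.1 with Bowtie2 2.4.5, and DESeq2 1.32.0. The sources used here name neither the annotation nor the strand setting. Counts were fitted with edgeR 4.0.16 (R 4.3.3): TMM scaling, filterByExpr at a minimum count of 10, quasi-likelihood tests, Benjamini-Hochberg adjustment at 0.05 over all genes, 1 fit for each tissue and generation. CPM and log2 CPM (prior count 2) used TMM over the 27 libraries of a tissue, and the tissue comparison used TMM over its 12 libraries, so its CPM differ slightly. The SE of a log2 fold change was derived from this test, as the size of the change over the square root of its F statistic. With 3 libraries against 3 an exact permutation test cannot give a p under 0.1. The procedure was also run on counts simulated with known 2-fold changes, and the outcome is not given here. Members, lists and tests were chosen with earlier results of these data known. Named genes were members called or with the lowest p in the comparisons with the largest medians, X-linked members with paralogs, both ends of the tissue difference, the stalk and reference genes, and the most and least variable members; some items are not reported here. Alternatives were RLE factors, no filter, the replicate letter as a block, DESeq2 1.42.0, fewer libraries, and, added after seeing the data, a short-transcript term and F1 testis without dose 2 B and C. No library column was left unmatched, and replicate libraries differed by more than counting error (lowest chi-square per degree of freedom 7.43). Transcript lengths were from GENCODE vM21.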

Additional observations from a re-analysis of the deposited data

How the results depend on the processing

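Of 410 alternative values of the member counts and medians, 397 stayed on the same side of the threshold or within the spread between libraries. That spread is a wide allowance. For dose 2 in F1 testis the pooled SD between libraries was 0.57, and the median ran from 0.002 to 0.679 over the alternatives. Members at an unadjusted edgeR p under 0.05 went there from 0 to 48 without dose 2 B, beside 17.2% of all genes. Counts of called members moved in F2 testis. In the maternal dose 2 cross DESeq2 called 4 members, beside 2.48% of all genes. The fit with the replicate block called 4 (Rps15, Rpl34, Rps19 and Rps2) and the 6 libraries alone 1 (Rpl26). Leaving out 1 library at a time gave 0 to 1 (Rpl34, without maternal dose 2 A). At an unadjusted edgeR p under 0.05, 17.5%, 16.8% and 14.7% of all genes passed with the block, the 6 libraries and without maternal dose 2 A. In the paternal dose 1 cross DESeq2 called 2, beside 1.12% of all genes. The replicate block called 1 (Rpl14), the 6 libraries alone 1 (Rpl26) and the short-transcript term 2 (Rpl14 and Rps2). At an unadjusted edgeR p under 0.05, 14.1%, 11.6% and 13.1% of all genes passed in these 3 fits, in the same order. In the maternal dose 1 cross the 6 libraries alone gave 1 (Rpl26), with 5.89% of all genes at an unadjusted edgeR p under 0.05. The shares of all genes called at the adjusted threshold in these edgeR alternatives are not given here, so these member counts cannot be set against them. The median of the maternal dose 2 cross was 0.046 with the short-transcript term, and that of the paternal dose 1 cross was 0.011 to 0.055 when 1 library at a time was left out. The tissue median was -1.321 in F1 control libraries alone and -2.144 in F2 control cross libraries alone. The cause of these shifts was not tested. The replicate letters did not pair the libraries: of same-letter pairs, 2 of 9 in F1 testis, 5 of 45 in F2 testis, 3 of 9 in F1 ovary and 5 of 45 in F2 ovary had deviations correlated over 0.1. The block changed no other call. Medians of the F1 ovary doses, of 4 F2 ovary crosses and of the maternal dose 1 and paternal dose 2 crosses of F2 testis changed sign under at least 1 alternative. With 3 libraries a group, small differences could not be detected where libraries spread as in F1 testis.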
